A study of Mus musculus with 12 samples.

Results

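Growing tumour cells were compared between lungs of Tgfbr2 KO mice and lungs of WT mice. They were D2A1 cells, a mouse mammary carcinoma line, carrying a doxycycline-inducible nuclear H2B-GFP and stained with CellVue Claret (CVC), a membrane dye that is diluted at each division. The cells were injected into the tail vein, and GFP-positive cells that had lost the dye were sorted from the lungs in the second week after injection as growing cells. The KO hosts carried floxed Tgfbr2 alleles and a Cre driven by the Lysozyme 2 promoter, which removes the TGF-β type II receptor from myeloid cells of the host and not from the injected tumour cells. The labels call the controls WT, and the study's legends describe mice with floxed Tgfbr2 as controls. The comparison held 6 of the 12 libraries, 3 from KO hosts and 3 from WT hosts, and the remaining 6 were CVC-positive dormant cells of the same hosts. A gene was a member when it reached 1 TPM (a level corrected for transcript length and expressed as a share of the library) in at least 3 of the 6 growing libraries, and 10847 of the 54146 genes in the table did so. All KO libraries were labelled batch 2 and all WT libraries batch 1 in the column names, so host and library batch cannot be told apart in the libraries used here.

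The comparison asks what the loss of the receptor from a host's myeloid cells does to the tumour cells that grow beside them. Transforming growth factor β restrains macrophage and neutrophil effector programmes and lymphocyte responses. Tumour cells sense their surroundings through receptors for interferons, chemokines and matrix. Interferon γ induces genes for guanylate-binding proteins, the immunoproteasome and antigen presentation. Surfactant, secretoglobins and immunoglobulins are normally products of lung epithelial and immune cells rather than of carcinoma cells. In such bulk libraries, fewer cells of a type and less RNA per cell cannot be told apart.

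The libraries were sorted as cells of a mammary tumour line in both hosts. Spp1, which encodes osteopontin and was the most abundant gene, stood at 32636, 31799 and 28980 TPM in the KO libraries and at 31819, 34070 and 33623 TPM in the WT libraries. The 10 listed genes of the tumour line summed to 30507.9 to 34397.4 TPM in KO and 33148.7 to 35426.9 TPM in WT libraries. Spp1 alone made up most of each sum. None of the 6 tested was called, but Krt18 passed the adjusted p with a difference below 1 (0.81 ± 0.12, adjusted p = 0.00715, limma). The epithelial genes Epcam and Cdh1 of this list reached at most 1.12 and 1.88 TPM in any of the 6 libraries. Krt5 and Krt14, keratins of basal mammary epithelium, were listed at 0 in all 6 libraries. By contrast the dormant KO libraries held only 1906.4 to 2303.3 TPM of this list and stood apart from the other 9 libraries, and they enter only the dormant values below. Between 13406 and 14063 genes were above 0 in KO libraries and between 14352 and 14475 in WT libraries. Genes of the mitochondrial genome took 3.81% to 4.23% of the TPM in KO and 5.52% to 6.30% in WT libraries. The 3 libraries of a host are separate samples by their labels, and the study's legend gives 3 mice per group. The mean correlation of log2(TPM + 1) was 0.913 within KO, 0.946 within WT and 0.900 between hosts, over all genes tested. Read depth is unknown, since TPM keeps no counts.

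Tgfbr2 itself was low in every growing library, at 1.27, 1.58 and 1.47 TPM in KO hosts and at 1.01, 0.44 and 0.72 TPM in WT hosts. The difference of 0.51 ± 0.39 (log2 scale, SE, adjusted p = 0.537 by limma) was not called. As the deletion lies in the host's myeloid cells, these values do not check the labels.

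Of the 10847 genes, 225 were called higher in growing cells from KO hosts, which is 2.07% of those tested, and 140 were called lower, which is 1.29%. A call needed a Benjamini-Hochberg adjusted p of at most 0.05 in limma's moderated test and a difference of at least 1 in log2(TPM + 1), which understates the change of low genes. The median difference over all genes was 0.02, and 51.6% of genes lay above 0. The calls were larger on the higher side, with a median size of 2.24 against 1.71, and 65 of the 225 higher genes against 14 of the 140 lower genes moved by 3 or more. The libraries of the hosts did not overlap for any called gene, and the same was true of 26.2% of all genes tested. Many called genes entered the test through one host alone: 77 of the higher genes reached 1 TPM in KO libraries only and 50 were at 0 in all WT libraries, whereas 47 of the lower genes reached 1 TPM in WT libraries only and 33 were at 0 in all KO libraries. Transcript length moved with the calls: protein-coding genes called higher had a median transcript length of 1783 bases, against 3162 bases for those called lower and 3150 bases for all tested, and the part of length in the calls was not tested. At the edge of the filter, 1043 genes with exactly 3 libraries at 1 TPM had a median mean level of 1.44 TPM, and 1211 genes with exactly 2 such libraries, left out, had 0.89 TPM.

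**Figure D1:**
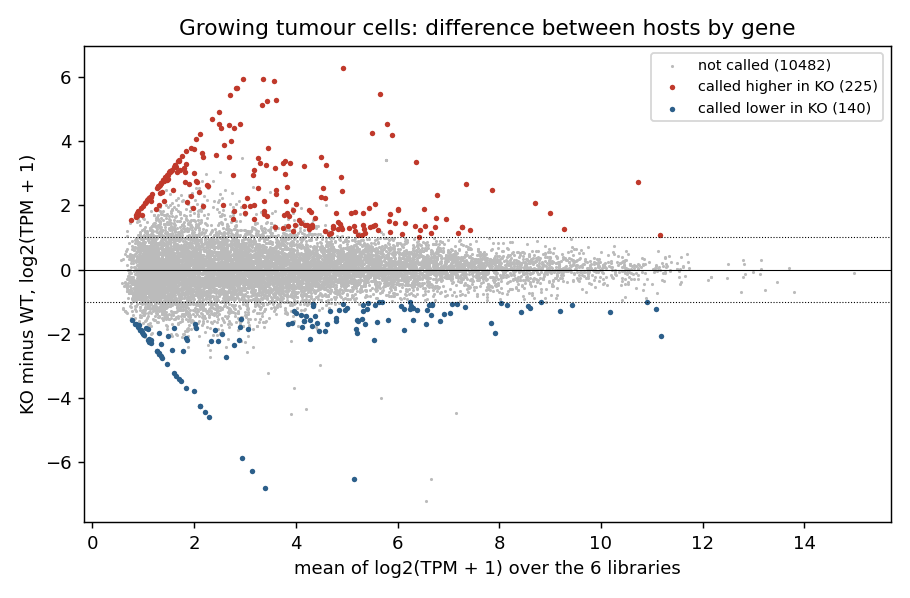
Difference between hosts (KO minus WT, y axis) against mean level (x axis), both in log2(TPM + 1), for the 10847 genes tested. Each point is a gene. Red points are the 225 genes called higher, blue points the 140 called lower, and dotted lines mark the minimum difference of 1. The straight edges at the left are genes at or near 0 in one host.

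The largest rises in growing cells from KO hosts were of Rarres2, the immunoglobulin segments Igkv12-44 and Igkv6-23, Retnla, Nkain4, Ccl21a and Cxcl13. Rarres2 (chr6:48569696-48572789 in GRCm38), which encodes the chemoattractant chemerin, was at 207.71, 228.92 and 408.44 TPM in KO libraries and at 1.52, 3.26 and 2.81 TPM in WT libraries. Its difference was 6.29 ± 0.33 (SE, adjusted p = 9.11e-05, limma), the largest of the 225. Cxcl13 (chr5:95956951-95961068), a chemokine that attracts B cells, was at 315.4, 359.84 and 328.4 TPM in KO and at 0.70, 28.42 and 7.66 TPM in WT libraries. The lowest KO library lay far above the highest WT library, and the difference was 5.47 ± 0.83 (adjusted p = 0.0079). Serping1, the C1 inhibitor of complement, was at 74.38, 67.36 and 85.17 TPM against 0, 1.34 and 2.13 TPM (5.30 ± 0.46, adjusted p = 0.000674).

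Several of the leading genes were listed at 0 in every WT library. Nkain4, which encodes a protein that interacts with the sodium pump, was at 41.6, 39.98 and 74.5 TPM in KO libraries (adjusted p = 0.000329). Ccl21a, a chemokine of lymphatic vessels and lymphoid tissue, was at 38.53, 50.29 and 60.23 TPM (adjusted p = 0.000303), and Fam183b, a gene of ciliated cells, was at 39.36, 21.9 and 18.18 TPM (adjusted p = 0.00108). For these 3 genes no fold is given. Ccl8, a monocyte chemoattractant, was at 89.33, 65.83 and 49.16 TPM against 0, 4.36 and 0 TPM, with a difference of 5.26 ± 0.66 (adjusted p = 0.0032). Retnla, a resistin-like protein of alternatively activated macrophages and lung epithelium that the table spells Retnia, was at 88.87, 65.66 and 127.79 TPM against 0.08, 2.48 and 0 TPM (5.88 ± 0.53, adjusted p = 0.000875). All 5 genes of this paragraph, and Rarres2, Cxcl13 and Serping1, kept their call when any 1 of the 6 libraries was left out. Without the filter on low genes the call of Cxcl13 was lost (adjusted p = 0.0711). Rarres2, Nkain4 and Ccl21a overlap a gene on the opposite strand, and as the use of strand is not stated, reads of such a pair cannot be told apart.

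**Figure D2:**
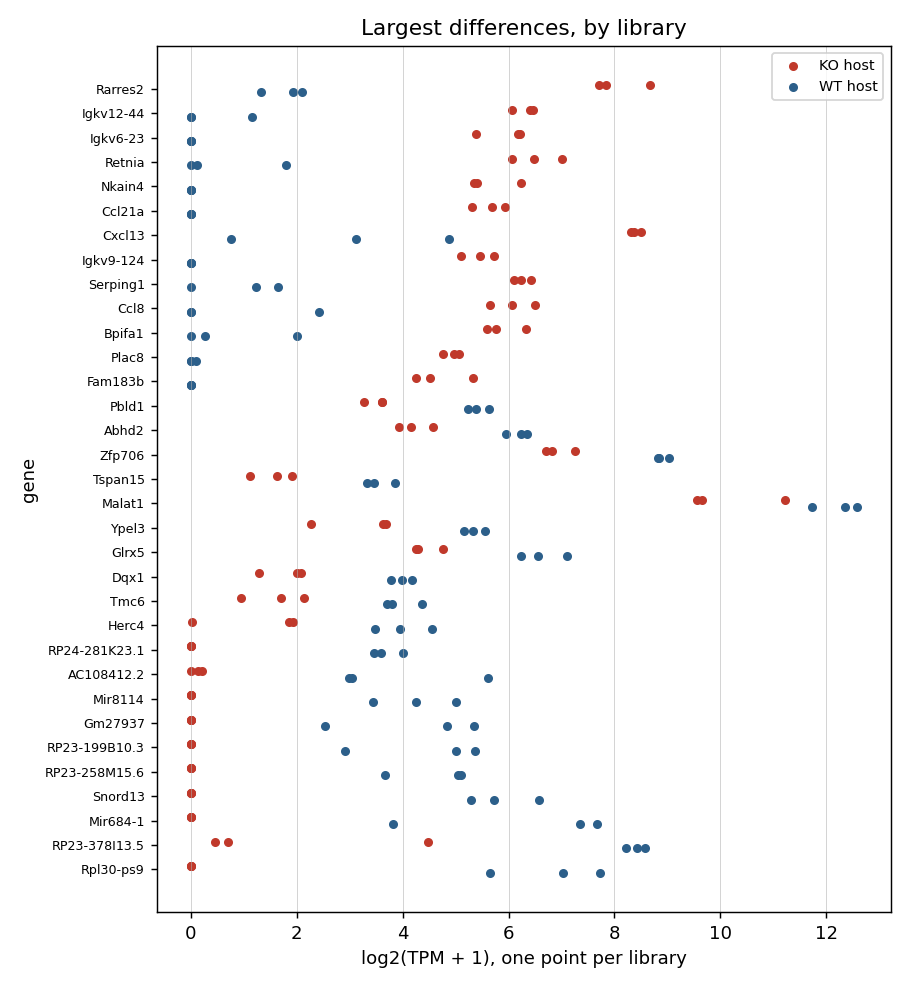
Level in log2(TPM + 1) (x axis) of the genes of largest difference in each direction (y axis), one point per library, red for KO hosts and blue for WT hosts. The groups do not overlap for any gene shown. Rarres2, at the top, has its KO libraries at 207.71 TPM or more and its WT libraries at 3.26 TPM or less.

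Among 8 tested club cell markers, 7 rose in KO libraries (87.5%, against 2.07% of all genes), with a list median of 2.81. Cyp2f2 and Reg3g entered the test through KO libraries alone and so had to lie higher, and 5 of the other 6 were called. Scgb3a1, a secretoglobin and 1 of the 7, kept its call in 2 of the 6 fits that left out a library. Scgb1a1, the main secretoglobin of club cells, rose from 279.82, 290.36 and 263.8 TPM in WT to 919.76, 946.7 and 947.26 TPM in KO libraries, a difference of 1.75 ± 0.08 that had the smallest adjusted p of the named genes (6.87e-05, limma). Bpifa1, an airway host defence protein, was at 47.03, 53.67 and 79.91 TPM against 0.21, 0 and 3.02 TPM (5.14 ± 0.56, adjusted p = 0.00204). Of 7 tested alveolar type 2 markers, 4 rose (57.1%), all of them secreted products: Sftpc, Sftpa1, Sftpd and Lyz1. Sftpd and Lyz1 entered the test through KO libraries alone and so had to lie higher, and 2 of the other 5 were called. When 1 library was left out, Sftpa1 kept its call in 2, Sftpd in 3 and Lyz1 in 4 of the 6 fits. Sftpc, surfactant protein C, was at 386.96, 419.41 and 423.03 TPM in KO and at 46.03, 84.6 and 68.14 TPM in WT libraries (2.65 ± 0.20, adjusted p = 0.000396). Abca3, Etv5 and Napsa of the same list were not called and stood below 8 TPM in all 6 libraries. Abca3 and Napsa lay below 0, with differences of -0.4 and -1.25. Lyz1 is 95.8% identical to Lyz2 over the compared transcript, so the division of reads between them is uncertain. Pdpn was the 1 alveolar type 1 marker of 7 to rise (14.3%, against 2.07% of all genes), and it entered the test through KO libraries alone. None of 4 ciliated markers was called, and 0 calls in so short a list are near the share over all genes. All 4 lay above 0 with a median of 1.41, and the ciliated list summed to 37.1 to 130.6 TPM in KO and 7.1 to 21.2 TPM in WT libraries.

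Of 7 tested mesothelial markers, 5 rose (71.4%, against 2.07% of all genes), 4 of which entered the test through KO libraries alone, with a list median of 2.75 and a summed level of 279.6 to 511.4 TPM in KO against 22.7 to 36.7 TPM in WT libraries. Rarres2 belongs to this list and made up most of its sum in KO libraries. Upk1b and Upk3b, uroplakins of mesothelium, were at 0 in all WT libraries and at 10.13 to 25.53 TPM and 5.81 to 14.85 TPM in KO libraries. Msln, the defining antigen of mesothelium, was not called, at 33.44, 30.96 and 41.8 TPM against 21.09, 26.39 and 26.12 TPM (0.51 ± 0.23, adjusted p = 0.269). Of 13 tested fibroblast and pericyte markers, 4 rose (30.8%, against 2.07%), namely Dcn, Col3a1, Col1a2 and Gsn, of which Col1a2 kept its call in 1 and Gsn in 5 of the 6 fits that left out a library. Dcn, which encodes the matrix proteoglycan decorin, was at 244.95, 263.22 and 253.68 TPM against 8.78, 22.9 and 10.24 TPM (4.21 ± 0.32, adjusted p = 0.000351). The list was not uniform: Mgp, Lum and Fbln1 were not called, and Mgp was abundant in both hosts at 515.6 to 725.37 TPM in KO and 561.99 to 725.06 TPM in WT libraries. Ramp2 and Car4 were the 2 of 6 endothelial markers to rise (33.3%, against 2.07%), and leaving out 1 library ended the call of Ramp2 in all 6 such fits and that of Car4 in 5.

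Calls among markers of immune cells fell on B and plasma cells, macrophages and 1 neutrophil gene. Of 11 tested B and plasma cell markers, 5 rose (45.5%), and the list summed to 600.1 to 661.9 TPM in KO against 86.8 to 106.3 TPM in WT libraries. Igkc, the constant region of the κ light chain, was at 252.64, 312.28 and 234.21 TPM against 28.99, 18.92 and 27.78 TPM (3.36 ± 0.21, adjusted p = 0.00017). Igkc and Ighm kept their call in all 6 fits that left out a library and lost it in the fit of all 12 libraries (adjusted p = 0.124 and 0.324), while Iglc2 and Jchain kept it in 2 of the 6. Among all 21 immunoglobulin segments tested, 14 were called higher (66.7%, against 2.07% of all genes) and 0 lower by limma. Of the 14, 7 entered the test through KO libraries alone and so had to differ, and the other 7 were among 14 segments that did not. Igkv12-44, a κ variable segment, was at 83.86, 66.3 and 87.71 TPM in KO and at 0, 0 and 1.22 TPM in WT libraries (adjusted p = 0.000329). The B cell surface markers Ms4a1 and Cd79a stood below 9 TPM in all 6 libraries and were not called, and Pax5 was at 0 throughout. Igha, a heavy chain constant gene of the list, lay below 0 and was not called (-1.49 ± 0.72, adjusted p = 0.298). It was at 4.3, 0 and 3.75 TPM against 4.74, 5.58 and 13.77 TPM. Of 13 tested macrophage markers, 5 rose, which is 38.5% (Apoe, C1qb, C1qc, Ctss and Lyz2), whereas Cd14 and Cd68 were not called and Cd163, Marco and Siglecf were at 0 in all 6 libraries. When 1 library was left out, Apoe kept its call in 1, C1qb and C1qc in 2 and Ctss in 3 of the 6 fits. Lyz2, whose promoter drives the Cre, was at 127.94, 90.76 and 135.47 TPM against 45.9, 61.38 and 25.98 TPM (1.45 ± 0.31, adjusted p = 0.0303). Of 6 neutrophil markers only Mmp9 was called. None of 5 tested T and NK cell markers was called, which is near the share over all genes. All 5 lay above 0 with a median of 0.87, while Cd4, Cd8a, Gzmb, Ifng and Prf1 were at 0 in all libraries.

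Not every blood or lung product differed. Haemoglobins were abundant and close in both hosts, with the erythroid list at 6977.5 to 7908.3 TPM in KO and 6339.3 to 6942.6 TPM in WT libraries, a median difference of 0.13, and none of 7 genes called. Over all 16 cell type lists, 34 of the 225 higher genes (15.1%) and 0 of the 140 lower genes were list members, against 0.977% of the genes tested. The lists were chosen with earlier results of these data known.

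**Figure D3:**
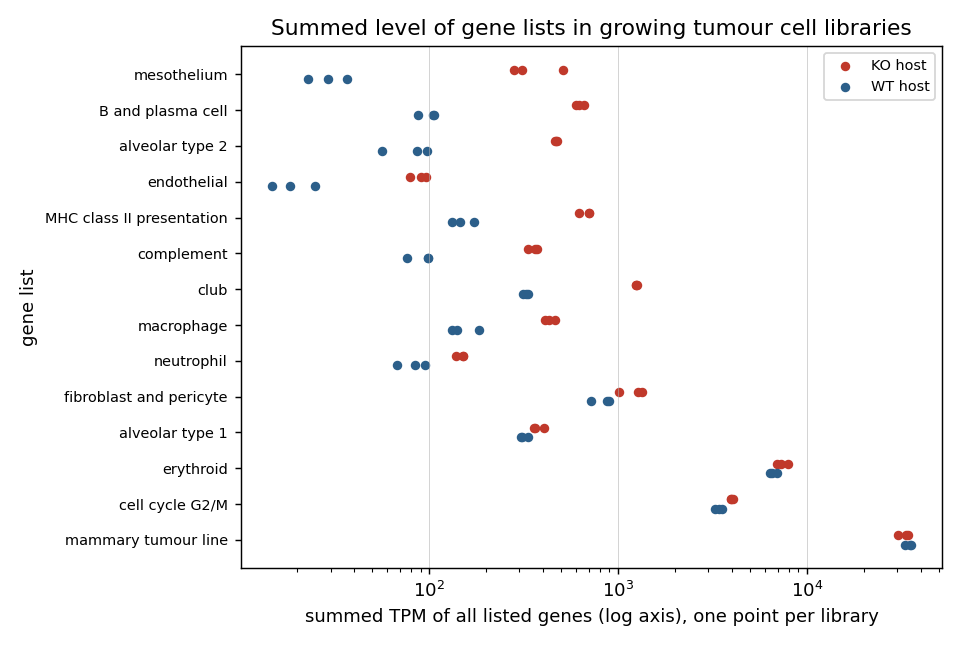
Summed TPM of all genes of a list (x axis, log scale) for 14 lists (y axis), one point per library, red for KO and blue for WT hosts. The mesothelial, B and plasma cell, alveolar type 2 and club lists lie well apart, with the club list at 1238.5 to 1265.5 TPM in KO and 314.6 to 334.0 TPM in WT libraries, while the erythroid and tumour line lists lie close together.

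The dormant libraries of the same hosts gave the level of the same genes in dye-retaining cells. The growing and dormant comparisons share no library but share the batches. Of the 225 genes higher in growing KO libraries, 119 (52.9%) were also called higher in dormant KO against dormant WT libraries, which is 12.5% of the 953 dormant calls in that direction (8.79% of genes tested), and 4 were called lower. Of the 140 lower genes, 61 (43.6%) were also called lower, which is 5.4% of the 1130 such dormant calls (10.4% of genes tested). In the 111 genes called higher in both comparisons with at least 10 TPM in dormant KO libraries, the excess of growing KO over growing WT was a median of 13.7% of the dormant KO level, with quartiles of 5.31% and 38.6%. For the summed lists, called or not, this share was 0.940% for alveolar type 2, 2.54% for mesothelium, 4.92% for macrophage, 15.5% for B and plasma cell and 34.8% for club markers. Whether RNA of other lung cells entered the growing KO libraries was not tested.

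Some of the rises were of genes that were scarce in the dormant KO libraries. Cxcl13 averaged 334.5 TPM in growing KO and 20.86 TPM in dormant KO libraries, Bpifa1 60.2 and 1.24 TPM, and Igkv12-44 79.29 and 0 TPM. Mmp9, a matrix protease, read 32.41, 31.69 and 20.51 TPM in growing cells of KO hosts and 8.73, 10.4 and 9.13 TPM in those of WT hosts, with a mean of 2.87 TPM in dormant KO libraries (1.46 ± 0.30, adjusted p = 0.0267). Its call was lost in 5 of the 6 fits that left out 1 library. A test of whether the difference between hosts was of another size in growing than in dormant libraries (limma's interaction in a fit of all 12) was called for 72 of the 225 higher and 26 of the 140 lower genes, against 7.35% of all genes tested. Of the 72, the difference was larger in growing libraries for 29 and larger in dormant libraries for 43. These genes were chosen for their growing difference, which is 1 side of this test. In total, 105 of the 225 higher genes had a higher mean in growing KO than in dormant KO libraries.

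Of 9 tested MHC class II genes, 7 were called higher (77.8%, against 2.07% of all genes), with a median of 1.89 and a sum of 620.9 to 699.1 TPM in KO against 132.1 to 172.2 TPM in WT libraries. Cd74, the invariant chain, was at 255.15, 247.18 and 226.93 TPM against 50.57, 49.58 and 44.69 TPM (2.31 ± 0.13, adjusted p = 0.00015). H2-Aa and H2-Ab1, which pair into the I-A molecule, differed by 2.44 ± 0.31 and 1.89 ± 0.16 (adjusted p = 0.00358 and 0.000674). H2-DMa and H2-DMb2, of the chaperone that loads peptide, were not called (adjusted p = 0.685 and 0.694). H2-DMb1, of the same chaperone, was called at 3.02, 2.89 and 1.38 TPM against 0, 0.09 and 0 TPM (1.70 ± 0.41, adjusted p = 0.0483). It entered the test through KO libraries alone. Ciita, the transactivator that MHC class II genes require, was at 0 in all 6 libraries. Cd74 and Ctss are also members of the B cell and macrophage lists, and the sums of both lists moved with these genes; their part in the result was not tested.

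Of 13 complement genes, 6 rose (46.2%, against 2.07% of all genes), with a median of 1.96. C1qb and C1qc, which also stand on the macrophage list, kept their call in 2 of the 6 fits that left out a library. C3, the central component, was at 31.3, 20.56 and 45.45 TPM in KO and at 0.04, 0.27 and 1.58 TPM in WT libraries (4.40 ± 0.50, adjusted p = 0.00242). Its call was lost in the fit of all 12 libraries (adjusted p = 0.0631). C2 and Cfb, which supply the catalytic subunits of the classical and alternative convertases, were also called higher, with Cfb at 23.39, 49.62 and 53.1 TPM against 3.3, 5.08 and 0 TPM (3.77 ± 0.68, adjusted p = 0.016, called in 4 of the 6 fits that left out a library). Among 20 chemokines, 5 rose (25%, against 2.07% of all genes): Ccl2, Ccl6, Ccl8, Ccl21a and Cxcl13. Ccl2 was close to the threshold (adjusted p = 0.0491), and Ccl6 kept its call in 4 of the 6 fits that left out a library. The most abundant chemokine, Cxcl1, a neutrophil attractant, was at 1264.81 to 1533.29 TPM in KO and 1636.54 to 1832.05 TPM in WT libraries and was not called (-0.31 ± 0.08, adjusted p = 0.0697). The interferon-inducible Cxcl10 was at 85.78 to 105.98 TPM against 75.89 to 85.4 TPM (0.17 ± 0.15, adjusted p = 0.615).

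Of 32 interferon γ signalling genes and targets, 26 lay above 0 with a median of 0.36, and 2 were called higher (6.25%, against 2.07% of all genes), Gbp3 and Gbp4, the latter in none of the 6 fits that left out a library. Gbp3, a guanylate-binding GTPase of cell-autonomous immunity, was at 165.83, 197.56 and 142.67 TPM against 58.8, 67.24 and 73.91 TPM (1.32 ± 0.17, adjusted p = 0.00349). It kept its call in all 6 of those fits but lost it among the other settings, where limma's adjusted p reached 0.352. A further 6 of this list passed the adjusted p with a difference below 1. Neither receptor chain was called. Ifngr1 was at 7.74, 28.36 and 18.29 TPM against 7.82, 26.5 and 23.38 TPM (-0.09 ± 0.56, adjusted p = 0.957), and Ifngr2 was at 5.92, 15.99 and 7.33 TPM against 22.84, 18.69 and 30.59 TPM (-1.31 ± 0.41, adjusted p = 0.11). Irf1, an early target, differed by 0.46 ± 0.24 (adjusted p = 0.336).

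Type I interferon targets showed a median of 0.13, with Bst2 and Isg15 called higher among 22 (9.09%, against 2.07% of all genes). Bst2, which tethers budding virus at the cell surface, was at 226.62, 225.24 and 280.45 TPM against 114.08, 86.25 and 90.78 TPM (1.33 ± 0.15, adjusted p = 0.00266). Isg15, a ubiquitin-like modifier, was at 83.79, 83.49 and 59.49 TPM against 23.01, 33.68 and 28.64 TPM (1.38 ± 0.23, adjusted p = 0.0116). Both kept their call in all 6 fits that left out a library. Among the other settings each lost it, with limma's adjusted p reaching 0.631 for Bst2 and 0.473 for Isg15. Of 17 MHC class I genes, 15 lay above 0 with a median of 0.55. Tap1, a subunit of the peptide transporter, and H2-M3, a nonclassical class I chain, were called (11.8%), and a further 5 passed the adjusted p below the minimum difference, including H2-D1 (0.73 ± 0.07, adjusted p = 0.0013) and H2-K1 (0.66 ± 0.09, adjusted p = 0.00403). Tap1 lost its call in every fit that left out 1 library, and H2-M3 in 5 of the 6. B2m, the shared light chain, went the other way and was not called (-0.24 ± 0.06, adjusted p = 0.0537).

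The promoters of some called genes held letters like the interferon-stimulated response element, the sequence bound by the factors that act in interferon signalling. The stretches below were taken from the RefSeq promoter table (GRCm38.p6), 5′ to 3′ on the gene's strand and upstream of the annotated start, and are shown because the 4 genes are interferon-inducible and were called higher. Capitals mark the letters GAAA, any 2 bases and GAAA again, or their reverse complement, with overlapping matches joined.
Gbp3, chr3:142559984-142560029, plus strand: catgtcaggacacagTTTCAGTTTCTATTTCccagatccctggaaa
Gbp2b, chr3:142594695-142594734, plus strand: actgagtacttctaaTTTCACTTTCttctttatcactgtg
Isg15, chr4:156200860-156200911, minus strand: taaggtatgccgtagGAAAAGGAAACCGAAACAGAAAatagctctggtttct
Bst2, chr8:71537572-71537617, minus strand: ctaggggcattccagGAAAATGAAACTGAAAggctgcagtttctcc
Gbp2b was at 47.88, 51.54 and 50.92 TPM in KO and at 16.27, 9.58 and 17.5 TPM in WT libraries, a difference of 1.77 (adjusted p = 0.00834, limma).

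Across windows of 300 bases, searched on both strands, these letters occurred in 11 of 116 called higher protein-coding genes with a promoter in the table (9.48%), in 0 of 74 called lower genes, in 3.86% of 7313 tested protein-coding genes and in 3.99% of all 27025 promoters. The other genes of the 11 were Aif1, Ctss, Gstt1, Nbr1, Rcn3, Saa3 and Srgn. The letters TTCNNNGAA, the core of gamma-activated sites, occurred in 7.76% of the higher genes, 4.05% of the lower genes, 8.34% of tested genes and 9.55% of all promoters. The letters CCCCACCC, a box bound by Krüppel-like factors, occurred in 10.3%, 12.2%, 13.8% and 11.3% of the same sets. A match is a description of the letters in this window and not a binding site.

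Lists of tumour cell growth programmes held no called gene, and with 2.07% of all genes called higher and 1.29% lower, a count of 0 in lists of this size is near the share over all genes. None of 32 G2/M genes was called by limma, with 24 of 32 above 0, a median of 0.26, and 1 past the adjusted p alone. Their summed level did not overlap between hosts, at 3971.8 to 4043.6 TPM in KO and 3279.1 to 3555.3 TPM in WT libraries. The gene past the adjusted p was Birc5, which encodes survivin, at 761.96, 720.25 and 659.43 TPM against 539.62, 499.03 and 498.43 TPM (0.48 ± 0.08, adjusted p = 0.0152). Mki67, the proliferation antigen, was at 4.73, 7.56 and 5.3 TPM against 5.41, 3.84 and 6.12 TPM (0.16 ± 0.41, adjusted p = 0.877). None of 34 DNA replication genes was called, with a median of 0.26, 1 past the adjusted p alone and sums of 2506.3 to 2636.8 TPM against 2119.1 to 2218.8 TPM. Glycolysis and hypoxia genes had a median of 0.51, with 0 of 21 called and 5 past the adjusted p alone, among them Pgk1 (0.74 ± 0.09, adjusted p = 0.00358) and Pkm (0.71 ± 0.07, adjusted p = 0.00148), enzymes of the late steps of glycolysis. The glycolysis sum was 6278.6 to 6619.3 TPM against 4952.1 to 4985.4 TPM. Gapdh, of the same pathway, was level at 982.98 to 1029.25 TPM against 970.06 to 1043.19 TPM (-0.02 ± 0.06, adjusted p = 0.89).

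Genes of TGF-β signalling, fibronectin and integrins, and Krüppel-like factors were not called in any case: 0 of 17, 0 of 17 and 0 of 11 by limma, with medians of -0.12, -0.10 and -0.13 and no gene past the adjusted p alone. In lists of this size, 0 calls are near the share over all genes (2.07% higher and 1.29% lower). Klf4, a factor with roles in quiescence and differentiation, was at 8.52, 10.22 and 4.81 TPM against 8.12, 9.01 and 7.83 TPM (-0.13 ± 0.39, adjusted p = 0.903), and Klf2 differed by 0.01 ± 0.33 (adjusted p = 0.995). Fn1, fibronectin, was at 45.62, 65.3 and 54.86 TPM against 62.87, 73.38 and 78.44 TPM (-0.38 ± 0.19, adjusted p = 0.329). A p that misses the threshold does not show that the levels were equal.

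**Figure D4:**
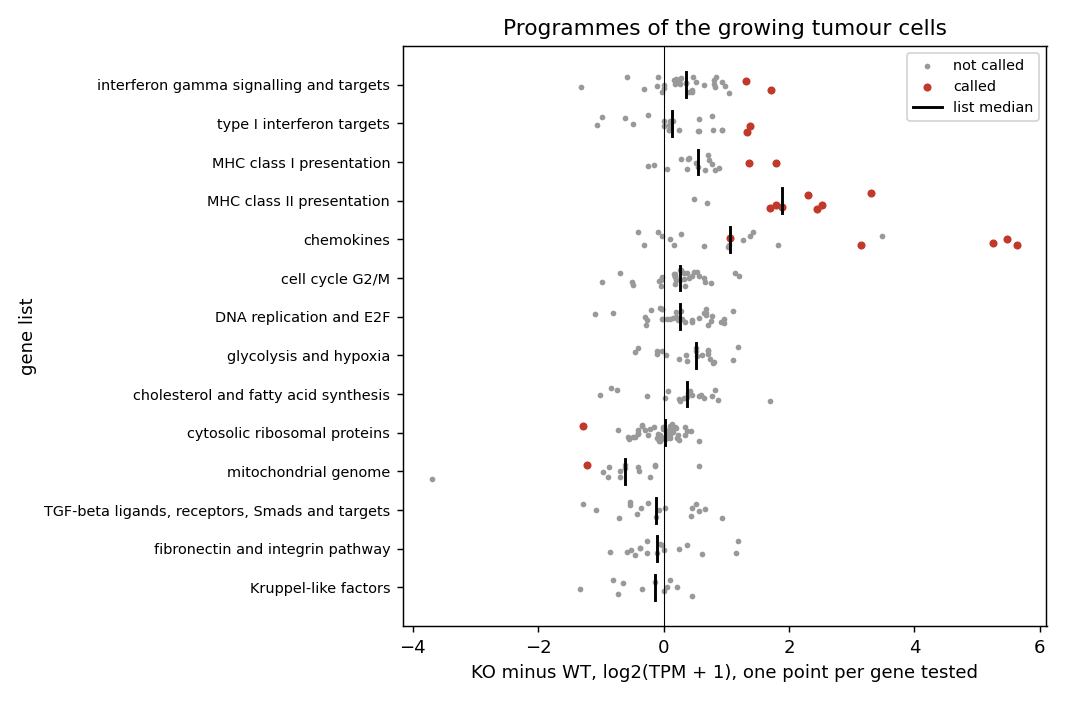
Difference between hosts (KO minus WT in log2(TPM + 1), x axis) for each tested gene of 14 lists (y axis). Red points were called, grey points were not, and a black bar marks the list median. MHC class II genes have a median of 1.89, and the cell cycle, replication, TGF-β, integrin and Krüppel-like lists have medians between -0.13 and 0.26.

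Of a panel of 18 genes drawn mostly from the study, some of them chosen there on these samples and therefore no independent evidence, 3 were called higher: Slurp1, Cd200 and Gas6, each of which entered the test through KO libraries alone. Slurp1, a secreted Ly6-family protein, read 6.62, 5.79 and 5.42 TPM in KO hosts, with 0.09, 0 and 0 TPM in WT hosts (2.75 ± 0.39, adjusted p = 0.00609), and averaged 735.6 TPM in dormant KO libraries. Cd200, which encodes the ligand of an inhibitory receptor on myeloid cells, was at 26.0, 7.16 and 6.19 TPM and was listed at 0 in all growing WT libraries (adjusted p = 0.0102), and its call was lost without the filter on low genes (adjusted p = 0.0696). Its dormant KO mean was 573.3 TPM. Gas6, the ligand of the Axl family of receptors, was at 9.93, 2.83 and 3.42 TPM against 0.3, 0 and 0.02 TPM (2.37 ± 0.51, adjusted p = 0.0321), and kept the call in 1 of the 6 fits that left out a library. Slurp1 stands on the mesothelial list too, whose sum moved with it. The other 15 were not called. Beside those given above, Plau, Plaur, Itgb1, Ptk2, Mapk14 and Cdkn1b had adjusted p of 0.261 or more.

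Of 21 actin and actin-binding genes, 3 were called higher (14.3%, against 2.07% of all genes), with a median of 0.06. A further 1 was called lower, against 1.29% of all genes. Tmsb4x, thymosin β4, which sequesters actin monomers, was at 581.55, 487.34 and 592.57 TPM in KO and at 108.93, 92.58 and 92.2 TPM in WT libraries (2.49 ± 0.12, adjusted p = 9.05e-05). Its relative Tmsb10 was lower, at 1537.85, 1147.03 and 1389.97 TPM against 3000.11, 2306.79 and 2841.28 TPM (-1.0 ± 0.13, adjusted p = 0.00321), and kept its call in 3 of the 6 fits that left out a library. Arpc3 and Arpc1b, subunits of the actin-nucleating Arp2/3 complex, were higher, Arpc1b at 213.84, 277.27 and 237.84 TPM against 83.73, 101.96 and 103.88 TPM (1.32 ± 0.15, adjusted p = 0.00224). Arpc3 was at 62.62, 88.04 and 91.25 TPM against 15.83, 12.83 and 4.56 TPM (2.89 ± 0.41, adjusted p = 0.006). The call of Arpc3 was lost among the alternative settings, where limma's adjusted p reached 0.47. Actb was level, at 7770.33 to 10459.79 TPM against 8022.75 to 9710.35 TPM (0.03 ± 0.11, adjusted p = 0.912). Among 50 ribosomal protein genes 0 were called higher and 1 lower, which is near the shares over all genes (2.07% and 1.29%). At the adjusted p alone, 4 of the 50 were higher and 8 lower. The called gene was Rpl37, at 392.27, 330.54 and 413.48 TPM against 1002.95, 875.92 and 877.13 TPM (-1.28 ± 0.11, adjusted p = 0.000508).

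None of the 140 genes called lower by limma was on a cell type list. The largest falls among named protein-coding genes outside clone-named loci were those of Herc4 (-2.73 ± 0.61, adjusted p = 0.0367), a ubiquitin ligase, and Tmc6 (-2.35 ± 0.46, adjusted p = 0.0225), a channel-like membrane protein, which kept their call in 0 and 1 of the 6 fits that left out a library. Both were below 4 TPM in all KO libraries. A fall of more abundant RNA was that of Glrx5, a mitochondrial glutaredoxin of iron-sulphur cluster assembly, at 18.11, 26.22 and 18.65 TPM against 93.27, 74.52 and 136.26 TPM (-2.19 ± 0.27, adjusted p = 0.00307). Zfp706, a small zinc finger protein, was at 151.66, 103.38 and 111.98 TPM against 519.68, 449.62 and 456.69 TPM (-1.97 ± 0.15, adjusted p = 0.0004), and Abhd2, a lipid hydrolase, differed by -1.96 ± 0.24 (adjusted p = 0.00314). Pbld1 fell by 1.92 ± 0.26 (adjusted p = 0.00484), but it shares near-identical sequence with 3 other genes, and the summed KO level was 0.599 of the WT level. Of the mitochondrial genome, 14 of 15 genes lay below 0 with a median of -0.62, 1 was called lower (mt-Rnr1, which kept its call in 1 of the 6 fits that left out a library) and a further 8 passed the adjusted p below the minimum difference. mt-Nd1, a subunit of complex I, was at 1204.1, 1538.64 and 1462.55 TPM against 2836.54, 2556.78 and 2296.85 TPM (-0.87 ± 0.11, adjusted p = 0.00307), whereas mt-Co3 lay above 0 (0.57 ± 0.13, adjusted p = 0.0427). A pseudogene identical to mt-Co3 over the compared transcript, RP23-8J15.4, was called lower, and the pair summed to 2349.5 to 2733.57 TPM in KO and 2761.77 to 3245.19 TPM in WT libraries.

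Of 69 tested short and structural RNAs, 15 were called lower (21.7%, against 1.29% of all genes) and 0 higher by limma. Of the 15, 10 entered the test through WT libraries alone and so had to differ, and the other 5 were among 57 that did not. Their summed level was 3059.9 to 5811.0 TPM in KO and 8283.2 to 10285.3 TPM in WT libraries, with 44 to 65 and 113 to 134 such genes above 0. Snord13 and the miRNA loci Mir684-1 and Mir8114 were at 0 in all KO libraries, with Snord13 at 38.29, 52.26 and 94.63 TPM in WT libraries (adjusted p = 0.000351). A kit that selects messenger RNA does not measure mature small RNAs, so these are reads assigned to the locus. Of 470 long non-coding RNAs, 7 were called higher (1.49%, against 2.07% of all genes) and 16 lower (3.4%, against 1.29%). Malat1, a nuclear long non-coding RNA, was at 809.41, 751.64 and 2395.41 TPM against 3395.7, 6139.62 and 5232.6 TPM (-2.07 ± 0.41, adjusted p = 0.0232), and kept its call in 2 of the 6 fits that left out a library. Within the 18S ribosomal locus on chromosome 17, Rn18s-rs5 was lower and the overlapping Yam1 was higher, at 4089.22, 3785.04 and 5497.43 TPM against 846.77, 1143.75 and 297.34 TPM (2.73 ± 0.42, adjusted p = 0.00811). These 2 genes were chosen after their values were seen, and their reads cannot be divided with certainty.

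Of 579 pseudogenes tested, 37 were called higher (6.39%, against 2.07% of all genes) and 8 lower (1.38%, against 1.29%). Of the 37, 31 had a near-identical copy elsewhere in the genome (at least 95% identity over at least 80% of the shorter transcript). That is 83.8%, near the 78.3% of all tested pseudogenes. In 16 of the 31 the summed level of the family in KO libraries was between 0.8 and 1.25 times that in WT libraries. Pgam1-ps2 averaged 27.36 TPM against 8.85 TPM, but with Pgam1 the sum was 412.3 TPM against 423.1 TPM. Rpl30-ps9, the gene of largest fall, was at 0 in all KO libraries and at 128.73, 49.0 and 209.6 TPM in WT libraries. With its copies it was level in both hosts. RP23-378I13.5 read 0.63, 0.37 and 21.43 TPM against 378.78, 295.38 and 344.36 TPM (-6.52 ± 0.91, adjusted p = 0.00541). It lies across Nme1 and Nme2, nucleoside diphosphate kinases that differed by -0.79 ± 0.10 and 0.57 ± 0.07 (adjusted p = 0.00294 and 0.00358), and the division of reads among the 3 genes is uncertain.

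**Figure D5:**
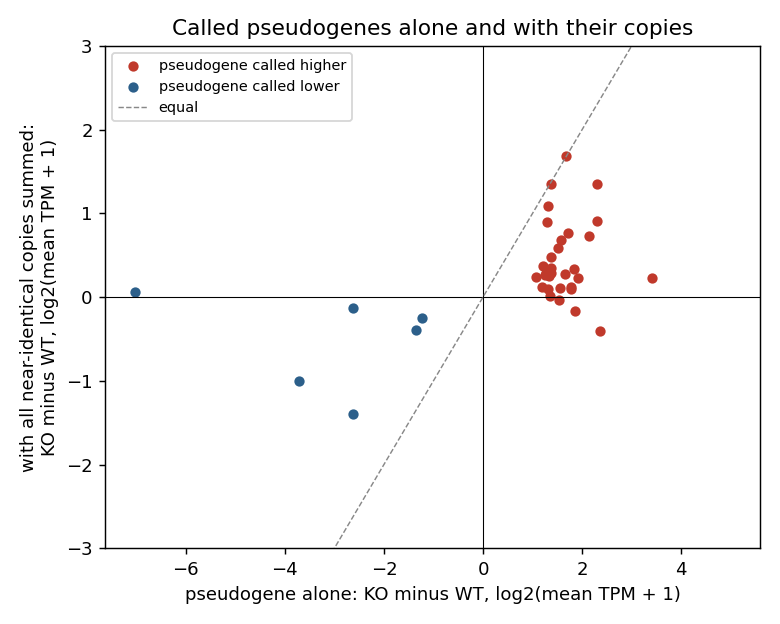
Called pseudogenes with a near-identical copy: difference of mean levels between hosts for the pseudogene alone (x axis) and for the pseudogene with all its copies summed (y axis), both as KO minus WT in log2(mean TPM + 1). Red points were called higher and blue points lower. The dashed line marks equal differences, and most points lie between it and the zero line of the y axis.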

How the data were processed

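RNA of 12 sorted samples of D2A1 cells was sequenced, of which the 6 growing ones are compared here. Per the labels, DNase-treated total RNA went into a TruSeq mRNA kit, whereas the study's methods describe Smart-seq2 on small aliquots of sorted cells. The submitters' processing notes name bcl2fastq 2.20, cutadapt 1.18, STAR 2.5.2b and RSEM 1.3.3, with the mm10 build. The deposited values are TPM per gene, which the authors estimated with RSEM on GENCODE gene models. RSEM divides reads that fit several loci, so near-identical copies and overlapping genes are uncertain. A further 30 columns of per-sample values matched no sample and were not used, although the names of some read WT and batch 2. TPM keeps no depth, so no counting interval is given.

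Genes at 1 TPM or more in at least 3 of the 6 growing libraries were tested on log2(TPM + 1) with limma 3.58.1 (lmFit, eBayes with trend, R 4.3.3), two-sided, with 4 residual degrees of freedom and Benjamini-Hochberg adjustment over 10847 genes. A fit of all 12 libraries gave the dormant values and the interaction. All adjusted p are from these fits. Copies were found with blastn 2.17.0 (at least 95% identity over 80% of the shorter transcript and 100 bases). Coordinates are GRCm38, and promoters are RefSeq windows on GRCm38.p6. The fit was tested on simulated data. The members and gene lists were chosen with earlier results of these data known. Genes named were the 10 largest called differences in each direction at 10 TPM or more (with and without predicted, pseudogene, small RNA and immunoglobulin names), a panel of 18 drawn mostly from the study, up to 4 called genes of each list and the 10 most abundant. Other members of the lists are named as contrasts, chosen after their values were seen. Alternatives changed the pseudocount, filter, normalization, fit, thresholds, replicate block and the libraries included. Some members of the lists are not reported here by name.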

Additional observations from a re-analysis of the deposited data

Results flagged for a closer look

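For 35 of the 105 named genes, the difference between hosts was of another size in growing than in dormant libraries by limma's interaction test, with p adjusted over all genes tested, of which 7.35% were called. All values are differences in log2(TPM + 1), given as the growing difference minus the dormant difference. Dormant and growing libraries of a host share a batch.

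Among genes higher in growing KO libraries, the growing difference exceeded the dormant one for Cxcl13 by 6.75 (adjusted p = 0.0189), where the differences were 5.47 in growing and -1.28 in dormant libraries. The value was 5.93 for Igkv12-44 (adjusted p = 0.000269), 4.63 for Bpifa1 (adjusted p = 0.0182), 3.84 for Ccl8 (adjusted p = 0.0141) and 3.05 for Igkv9-124 (adjusted p = 0.0302). It was 3.81 for C1qb (adjusted p = 0.0204), 2.80 for C1qc (adjusted p = 0.0131), 3.67 for Mmp9 (adjusted p = 0.0431) and 3.52 for Tap1 (adjusted p = 0.0346). Arpc1b gave 2.24 (adjusted p = 0.00289) and Cd74 1.58 (adjusted p = 0.00242).

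The opposite held for 14 genes, whose host difference was larger in dormant libraries. The value was -6.77 for Slurp1 (adjusted p = 7.93e-05), which differed by 2.75 in growing and 9.52 in dormant libraries. Among surfactant proteins it was -7.93 for Sftpa1 (adjusted p = 0.00027) and -6.11 for Sftpc (adjusted p = 4.09e-05). Among matrix and mesothelial genes it was -5.17 for Dcn (adjusted p = 0.00396), -3.34 for Col3a1 (adjusted p = 0.0159), -3.70 for Upk1b (adjusted p = 0.0103) and -3.31 for Upk3b (adjusted p = 0.0147). It was -5.61 for Cd200 (adjusted p = 0.00181), -4.27 for Iglc2 (adjusted p = 0.019), -4.06 for Plac8 (adjusted p = 0.00214) and -4.01 for Serping1 (adjusted p = 0.00616). It was -3.73 for Nkain4 (adjusted p = 0.00408), -3.42 for Gas6 (adjusted p = 0.0197) and -1.21 for Tmsb4x (adjusted p = 0.00237).

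Among genes lower in growing KO libraries, Pbld1 gave 3.68 (adjusted p = 0.00242) and Abhd2 1.76 (adjusted p = 0.0419), both with a deeper fall in dormant libraries. Tmc6 gave -5.40 (adjusted p = 0.0122), with differences of -2.35 in growing and 3.04 in dormant libraries, and RP23-199B10.3 gave -6.02 (adjusted p = 0.0217), with -4.43 and 1.59.

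The remaining 6 genes were not called between hosts in growing libraries. Spp1 gave 4.57 (adjusted p = 2.32e-09), Fn1 3.37 (adjusted p = 0.000305), Actb 2.0 (adjusted p = 8.64e-05), Itgb1 1.67 (adjusted p = 0.0331), S100a10 1.04 (adjusted p = 3.67e-05) and mt-Atp6 -1.22 (adjusted p = 0.0116).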

How the results depend on the processing

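The main counts were 225 genes higher and 140 lower. They came to 111 and 67 without the filter, 100 and 39 in a fit of all 12 libraries, 367 and 269 with no minimum difference, and 90 and 48 at an adjusted p of at most 0.01. Leaving out 1 library gave 121 to 153 higher and 55 to 108 lower genes. Replicate numbers did not pair the samples, since deviations of same-numbered libraries correlated at -0.007, 0.008 and -0.02 over genes, and with the replicate block 133 genes were higher and 79 lower. The other 7 settings gave 179 to 226 higher and 98 to 156 lower genes. Without the trend of the prior variance, 170 of the 225 and 94 of the 140 calls remained. The count of called genes with another difference in dormant libraries was 98, and 62 with array weights. Why these counts differ was not tested, apart from the looser and stricter thresholds and the smaller number of libraries, which are part of the settings themselves.

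Of 80 named called genes, 32 kept the call under every setting run, 49 kept it in all fits that left out 1 library, and none of the 80 reversed. Each such fit lost 20 or 21 of these calls. Testing without the filter lost 33, the fit of all 12 libraries 34 and the replicate block 12. Of 25 named genes that were not called, 5 were called under a setting, each of them with no minimum difference. Depth is unknown, and host and batch cannot be told apart in any of these fits.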
